A study of Oryza sativa with 3 samples.

Results

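MIR529a (osa-MIR529a), MIR529b (osa-MIR529b) and MIR535 (osa-MIR535) are 3 of the 516 known rice miRNA precursors that had at least 1 read in the small RNA libraries of the OsNAR2.1 lines, and they were chosen by name, with each distinct sequence taken a single time per library. OsNAR2.1 is the partner protein of the high-affinity nitrate transporters of rice. The 3 libraries were those of Ov199, a transgenic line that overexpresses OsNAR2.1 from the ubiquitin promoter (pUbi-OsNAR2.1), of the OsNAR2.1 RNAi line, and of NP, the wild-type Nipponbare (Oryza sativa ssp. japonica) that carries neither construct. Each line was 1 library, without replicates, made from RNA of plants at the blooming stage in which leaves, flowers and stems had been pooled. The paper describes both field plots and hydroponic culture of these lines, and its sequencing methods do not say which gave these plants. Each construct was represented by a single line, and the number of plants is not given in the sources used here. In such a pool, fewer cells of a type and less RNA per cell cannot be told apart.

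SQUAMOSA promoter binding protein-like (SPL) genes encode plant transcription factors that promote the change from the juvenile to the adult phase and shape tillers and panicle branches. In rice the mRNAs of many of them, such as that of OsSPL14, hold a single site to which miR156 pairs, and miR529 pairs with a site that overlaps it. The miR156 family is known as the abundant form in young shoots and miR529 as the form of the panicle. The miR535 family resembles miR156 in sequence and has also been described as acting on SPL mRNAs in rice. A miRNA is cut from a hairpin precursor as a duplex of a 5p and a 3p strand, named for the arm of the hairpin they come from, and as a rule 1 strand is kept in the silencing complex and the other is lost.

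The main sequence of each arm is shown first, because every level and isoform described here refers to it. The seed, bases 2 to 8, is in capitals, and all sequences are written 5′ to 3′ as DNA letters, as deposited.
MIR529a 5p: aGAAGAGAgagagtacagcct
MIR529a 3p: gCTGTACCctctctcttcttc
MIR535 5p: tGACAACGagagagagcacgc
MIR535 3p: gTGCTTTCtcccgttgtcact
miR156 5p: tTGACAGAagagagtgagcac
All of these are 21 nt long. The MIR529a precursor holds the 5p strand at positions 8 to 28 and the 3p strand at 84 to 104, and the MIR535 precursor holds them at 11 to 31 and at 76 to 96 (positions counted from 1 at the first base of the precursor used by the authors). The miR156 sequence is the commonest one of the 5p arm over MIR156a to MIR156l and aligned at 4 of these precursors. The seed and offsets given here for miR156 are those of this form only, and others of these precursors, such as MIR156a, had another main sequence. MIR529b had no main sequence of its own, as described further on. The 5 sequences have 5 different seeds.

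Laid without gaps at the best offset, MIR529a 5p and miR156 5p share 14 of the 16 bases that face each other, with the longest run 9 bases long, whereas MIR535 5p and miR156 5p share 12 of 19. The pair below is set so that base 1 of MIR529a 5p faces base 6 of miR156 5p, and capitals mark the bases that are the same.
MIR529a 5p: AGAAGAGAGaGAGtACagcct
miR156 5p: ttgacAGAAGAGAGtGAGcAC
The overlap is therefore a shared core with a shifted start, and the seeds differ although most of the core is common. MIR535 5p begins with the 5 bases that stand at positions 2 to 6 of miR156 5p. The 2 main strands of MIR529a were predicted to pair over 18 bases at -30.3 kcal/mol. Those of MIR535 were predicted to pair over 18 bases at -30.2 kcal/mol. In both duplexes the last 2 bases at each 3′ end were unpaired. These pairings are computed from the sequences and are not measurements.

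The libraries held 94154 aligned reads for Ov199, 62724 for RNAi and 49341 for NP, with reads at 440, 438 and 418 known precursors. Levels are given as normalized counts, which are reads per 1000000 aligned reads of the library, so that 1 read was worth 10.6 normalized counts in Ov199, 15.9 in RNAi and 20.3 in NP. A count of 0 allows up to 3 reads, or 31.9, 47.8 and 60.8 normalized counts in that order of lines. The reads carry no molecular identifiers, so the 95% intervals and limits cover counting error only, and Fisher's exact tests (two-sided, Benjamini-Hochberg adjusted) compare libraries and not lines. The mRNA of OsNAR2.1 is not measured by small RNA libraries, and the line labels could not be checked on it. Scaling by adapter-trimmed reads would shift all log2 ratios by 0.24 for Ov199 against NP, by -0.03 for RNAi against NP and by -0.27 for RNAi against Ov199, and TMM factors would shift them by 0.06, -0.10 and -0.16. All folds are given on aligned reads.

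MIR529a was one of the most abundant precursors in every line, and it was highest in RNAi. It had 3678 reads in Ov199, 3526 in RNAi and 1507 in NP, which made 39064 normalized counts in Ov199 (95% exact Poisson interval, 37811 to 40347), against 56214.5 in RNAi (54374 to 58101) and, at the lowest, 30543 in NP (29019.8 to 32124.5). The 3 intervals do not overlap, and the order was RNAi, Ov199, NP. Among the known precursors it ranked 12 in Ov199, 8 in RNAi and 13 in NP, and it held 3.91%, 5.62% and 3.05% of all aligned reads of these libraries.

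Compared to the NP, MIR529a was 1.28-fold in Ov199 (95% interval of the ratio, 1.20 to 1.36, adjusted p = 3.6e-15, Fisher's exact test) and 1.84-fold in RNAi (1.73 to 1.96, adjusted p = 7.3e-95, same exact test), on the scale of normalized count + 10. RNAi against Ov199 gave 1.44-fold (1.37 to 1.51, adjusted p = 1.1e-53, same exact test). MIR529a thus rose in both transgenic libraries and more in RNAi, and each of these calls held under every scaling of the libraries that was tried. Over all known precursors tested, 8.87% were called higher and 10.1% lower in Ov199 against NP (adjusted p under 0.05). RNAi against NP had 10.5% higher and 5.02% lower, while RNAi against Ov199 had 13% higher and 7.91% lower. These shares are not matched for abundance, and MIR529a had more reads than most of the precursors they cover. With 1 library per line, the spread between plants of a line is not known, and it is not contained in these values.

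**Figure D1:**
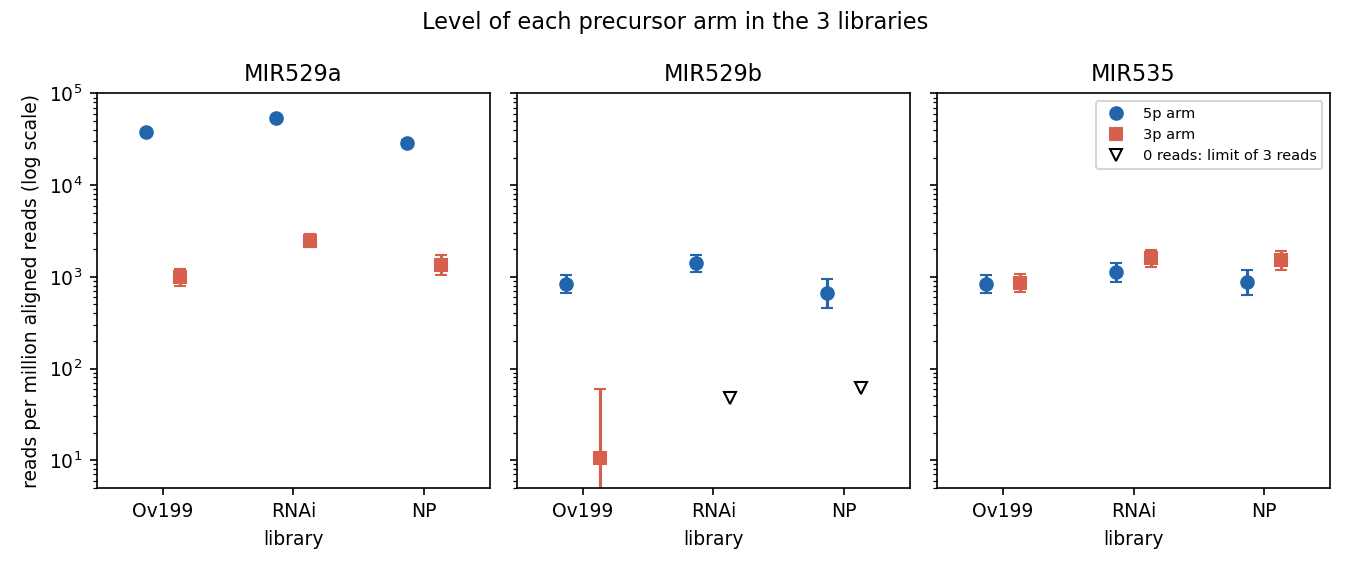
Normalized counts (reads per 1000000 aligned reads, log scale) on the 5p arm (circles) and the 3p arm (squares) of MIR529a, MIR529b and MIR535 in Ov199, RNAi and NP, 1 library each, with 95% exact Poisson intervals; open triangles mark the limit of 3 reads where no read was found. The 5p arm of MIR529a stands at 38076, 53727 and 29185 and far above its 3p arm in all 3 libraries, whereas the arms of MIR535 lie close together.

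The 5p arm carried nearly all reads of MIR529a. The span covered by reads was divided at its middle, position 53, into the arms. Reads on the 5p arm numbered 3585 of 3678 in Ov199, 3370 of 3526 in RNAi and 1440 of 1507 in NP. The 5p share was 97.5% in Ov199 with a 95% interval (Wilson) of 96.9 to 97.9%, against 95.6% for RNAi (94.8 to 96.2%) and also 95.6% for NP (94.4 to 96.5%). A major arm with at least 95% of the reads was found at 61 of the 149 known precursors with at least 100 reads (40.9%), so such a lopsided precursor was common in these libraries.

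The balance of the arms at MIR529a differed for Ov199. Its 5p share was 1.92 percentage points above that of NP (adjusted p = 0.016, Fisher's exact test over 367 precursors, of which 3.54% passed), and RNAi minus Ov199 gave -1.90 points (adjusted p = 8.1e-04, same exact test over 386 precursors, of which 2.85% passed). RNAi and NP had nearly the same share, with a difference of 0.022 points (adjusted p = 1, same exact test, 1.1% of 364 precursors passed). The difference between Ov199 and NP was 1.66 points when only exact alignments were used and 1.83 points when only reads with a single place were used, and in neither case was it past the threshold, whereas that between RNAi and Ov199 held in both.

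Taken arm by arm, the 3p strand had 93 reads in Ov199, 156 in RNAi and 67 in NP. Normalized, these were 988, 2487 and 1358 counts. The 5p arm of Ov199 was 1.30 times that of NP (1.23 to 1.39) and its 3p arm 0.727 times (0.526 to 1.01), an interval that includes no change. In RNAi the arms moved together, with ratios to NP of 1.84 (1.73 to 1.96) for the 5p arm and 1.83 (1.37 to 2.48) for the 3p arm. RNAi against Ov199 gave 1.41 (1.35 to 1.48) for the 5p arm and 2.52 (1.94 to 3.29) for the 3p arm, so the 3p strand was the part of MIR529a in which RNAi and Ov199 differed most.

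**Figure D2:**
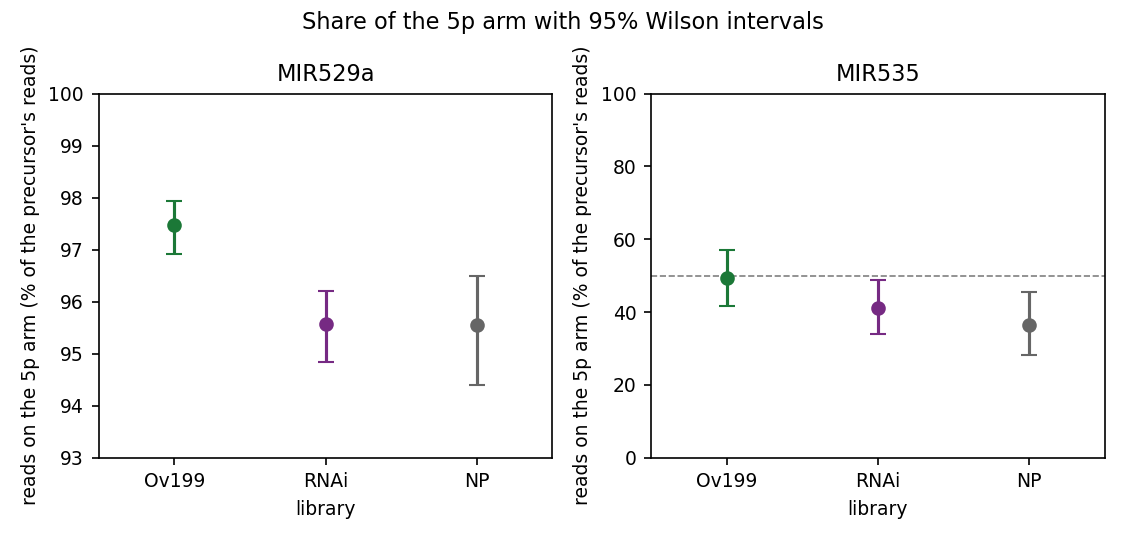
Share of the reads on the 5p arm (% of the reads of the precursor) for MIR529a and MIR535 in Ov199, RNAi and NP, 1 library each; points are the shares, bars the 95% Wilson intervals, and the axis for MIR529a runs only over 93 to 100%. At MIR529a the interval of Ov199 (96.9 to 97.9%) lies above that of RNAi (94.8 to 96.2%) and NP (94.4 to 96.5%), and at MIR535 the 3 intervals overlap.

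The 5p strand of MIR529a was precise at its 3′ end and looser at its 5′ end. Of the 5p reads, 98.7% in Ov199, 99.1% in RNAi and 98.6% in NP ended at position 28, while 85.2% (95% Wilson interval, 84.0 to 86.3%), 86.2% (85.0 to 87.3%) and 87.5% (85.7 to 89.1%) started at position 8. Reads of 21 nt made up 85.7% of the arm in Ov199, 86.4% in RNAi and 87.7% in NP. The main 21-nt sequence alone was read 2974 times in Ov199, 2842 times in RNAi and 1227 times in NP, or 80.9%, 80.6% and 81.4% of all reads at the precursor. Its share was thus about the same in the 3 lines, and its folds followed those of the precursor, at 1.27 in Ov199 (adjusted p = 2.1e-10) and 1.82 in RNAi over NP (adjusted p = 1.6e-72), and 1.43 in RNAi over Ov199 (adjusted p = 3.8e-41, all by Fisher's exact test over all distinct sequences).

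Most reads of shorter isoforms of the arm kept the same end and lacked bases at the start. The sequences are printed with the base at which each begins in capitals, so that the shift of the start can be seen against the main form.
main, 8 to 28: Agaagagagagagtacagcct
20 nt, 9 to 28: Gaagagagagagtacagcct
The 20-nt form was read 295 times in Ov199, 244 times in RNAi and 98 times in NP, which made 8.02%, 6.92% and 6.50% of the reads at the precursor. It was 1.57-fold in Ov199 against NP (adjusted p = 0.0083) and 1.95-fold in RNAi against NP (adjusted p = 1.9e-06), and it did not pass the test in RNAi against Ov199 (1.24-fold, adjusted p = 0.55, Fisher's exact test throughout). The form that starts at position 10 had 32 reads in Ov199, 20 in RNAi and 5 in NP, and the one that starts at 11 had 11, 6 and 5 reads. In Ov199 and RNAi each further base lost thus went with fewer reads, and in NP the last of these forms had 5 reads each. A 20-nt form that lost its last base instead, at positions 8 to 27, had 10 reads in Ov199, 5 in RNAi and 6 in NP. A separate sequence at positions 1 to 21, which ends inside the main strand, had 26 reads in Ov199, 13 in RNAi and 10 in NP.

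**Figure D3:**
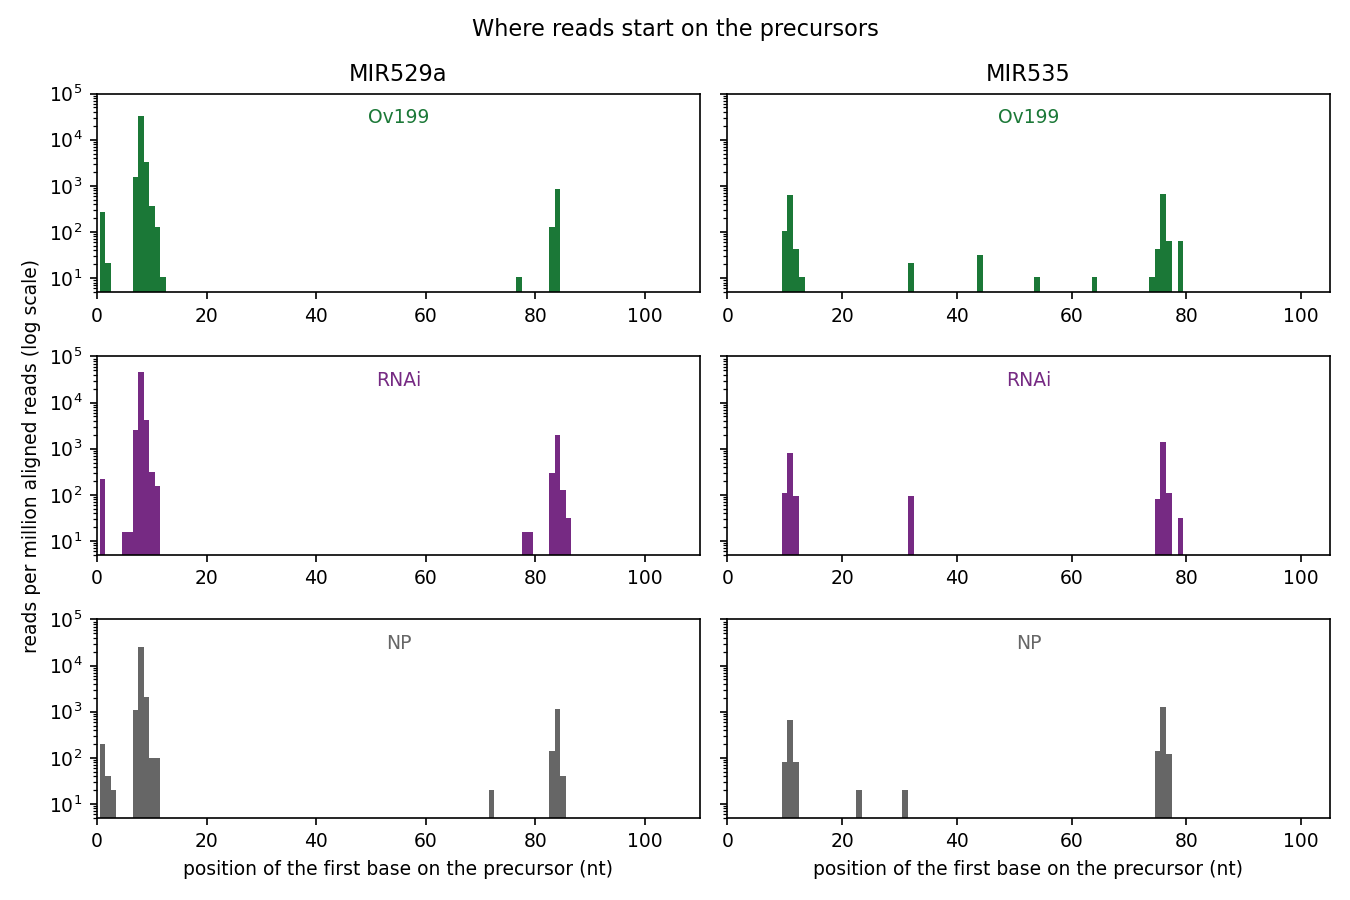
Normalized counts (reads per 1000000 aligned reads, log scale) by the position of their first base on the precursor (nt from its first base) for MIR529a and MIR535, with a row for each of the libraries Ov199, RNAi and NP. At MIR529a a single start at position 8 holds 85.2 to 87.5% of the 5p reads and the start at 84 leads the 3p arm, whereas at MIR535 the starts at 11 and 76 hold 59 and 62 reads in Ov199, 51 and 86 in RNAi and 33 and 62 in NP.

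Forms 1 base longer at the 5′ end carried a base that the MIR529a precursor does not have. Both common ones are 22 nt long and lie at positions 7 to 28, and the capital marks the first base, which stands where the precursor has A (substitutions A1G and A1T, counted from 1 at the 5′ end of the read, with the base of the precursor first).
A1G: Gagaagagagagagtacagcct
A1T: Tagaagagagagagtacagcct
The A1G form was read 76 times in Ov199, 87 times in RNAi and 33 times in NP, and the A1T form 64, 63 and 21 times. The form with the A of the precursor had 0 reads in Ov199, 5 in RNAi and 1 in NP. Of the 22-nt reads made of the main sequence with 1 base before it, 140 of 140 in Ov199, 152 of 157 in RNAi and 54 of 55 in NP therefore did not carry the base of the precursor (95% Wilson intervals, 97.3 to 100%, 92.8 to 98.6% and 90.4 to 99.7%). Counting every form, 143 reads in Ov199, 161 in RNAi and 55 in NP started at position 7.

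Such first bases were not particular to MIR529a. Among 45 other main sequences of known precursors with at least 10 reads of this kind, the median share without the base of the precursor was 61.5%, and 17 of them (37.8%) were at 95% or more, against 98.3% of 352 reads for MIR529a 5p. Over these other sequences G made up 74.7% and T 24.3% of the 3379 bases that differed. The 3p strand of MIR529a did the opposite, as all 10 such reads in Ov199, 16 in RNAi and 7 in NP carried the G of the precursor. Within the window of the main 5p sequence, substituted reads made up only 2.23% in Ov199, 1.90% in RNAi and 2.08% in NP. In RNAi against NP the A1G form was 2.06-fold (adjusted p = 0.030) and the A1T form 2.33-fold (adjusted p = 0.046), and neither passed in the other comparisons (Fisher's exact test); the call of A1T was lost with scaling by adapter-trimmed reads, at 2.28-fold.

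On the 3p arm of MIR529a, 86.0% of the reads in Ov199, 80.1% in RNAi and 85.1% in NP started at position 84, and 87.1%, 91.0% and 89.6% ended at position 104. The main 3p sequence was read 65 times in Ov199, 117 times in RNAi and 43 times in NP. It was 2.13-fold in RNAi against NP (adjusted p = 0.0020) and 2.68-fold in RNAi against Ov199 (adjusted p = 2.0e-08), and 0.795-fold in Ov199 against NP, which did not pass (adjusted p = 0.83, Fisher's exact test). The study lists a sequence of this arm as miR529a, which begins 1 base later than the main 3p form. It is shown with its seed in capitals.
listed miR529a, 85 to 104: cTGTACCCtctctcttcttc
It was read 0 times in Ov199, 6 times in RNAi and 2 times in NP, of 93, 156 and 67 reads of the arm. It was thus a minor isoform of the minor arm, with counts in Ov199 and NP that do not exceed the 3 reads a count of 0 allows. Paired with MIR529a 5p it was predicted to form 17 pairs at -26.5 kcal/mol. The listed form passed in none of the comparisons (adjusted p = 0.83 for Ov199 and 0.87 for RNAi over NP, 0.25 for RNAi over Ov199, Fisher's exact test). For miR529a the paper reports a fall in Ov199 and a rise in RNAi against NP, from sequencing and from RT-qPCR. The reads at the MIR529a precursor were higher than in NP in both libraries, at 1.28-fold in Ov199 and 1.84-fold in RNAi. Whether the RT-qPCR of the paper measured the listed form or the main 5p sequence was not examined here.

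MIR529b was read almost only through a sequence that it shares with MIR529a. It had 80 reads in Ov199, 89 in RNAi and 33 in NP, and 79, 89 and 33 of these also aligned at MIR529a. The commonest, with 76 reads in Ov199, 87 in RNAi and 33 in NP, is the A1G form of MIR529a, which lies at 23 to 44 of the MIR529b precursor and differs from it at base 21 instead of base 1 (T21C, capital).
at MIR529b, 23 to 44: gagaagagagagagtacagcCt
Each placement has 1 mismatch, so the alignments alone do not assign these reads to either precursor. The A1T form of MIR529a was placed at MIR529a alone. The other 5p forms placed at MIR529b had at most 1 read per library each.

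The recorded T21C substitution gives the sequence that MIR529b itself would have at positions 24 to 44, which is the form that matches the main strand of MIR529a in length and start.
implied MIR529b 5p: agaagagagagagtacagctt
This sequence was read 0 times in Ov199, RNAi and NP, alone or inside a longer read, which allows up to 3 reads per library. Exact alignments at MIR529b were 2 reads in Ov199, 0 in RNAi and 0 in NP. Of those 2, the 16-nt read also aligned at MIR529a, and the other, a 21-nt read of the 3p arm at positions 106 to 126, is the only read placed at MIR529b and nowhere else.
MIR529b 3p: gctgtacgctccctcttcttc

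The level of MIR529b was 850 normalized counts in Ov199 (674 to 1057), against 1419 for RNAi (1139.5 to 1746) and 669 for NP (460.4 to 939). The intervals of Ov199 and NP overlap, and that of RNAi lies above both. RNAi against NP gave 2.11-fold (ratio interval, 1.41 to 3.27, adjusted p = 0.0017) and RNAi against Ov199 1.66-fold (1.22 to 2.29, adjusted p = 0.0060), while Ov199 against NP gave 1.27-fold (0.837 to 1.97, adjusted p = 0.61, Fisher's exact test throughout). Because the same reads are counted at MIR529a, these folds are no separate evidence on a second gene. Both calls were lost when reads were divided over their places, with 2.13-fold and 1.64-fold, that of RNAi against Ov199 also with adapter-trimmed reads as the total (1.38-fold), and with exact alignments the comparison of RNAi with Ov199 rested on 0 and 2 reads.

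MIR535 was far less abundant than MIR529a and was lowest in Ov199. It had 160 reads in Ov199, 170 in RNAi and 118 in NP, which made 1699 normalized counts in Ov199 (1446 to 1984), 2710.3 for RNAi (2318 to 3149.7) and 2392 for NP (1979.5 to 2864). The intervals of RNAi and NP overlap widely, and that of Ov199 meets only the lower end of that of NP. MIR535 ranked 73 in Ov199, 57 in RNAi and 56 in NP.

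Compared to the NP, MIR535 fell to 0.712-fold in Ov199 (ratio interval, 0.557 to 0.909, adjusted p = 0.032, Fisher's exact test), where 10.1% of all known precursors were called lower. RNAi against NP gave 1.13-fold (0.891 to 1.45, adjusted p = 0.65, same exact test), and RNAi against Ov199 1.59-fold (1.28 to 1.99, adjusted p = 2.6e-04, same exact test). The size of the difference in RNAi against NP is therefore bounded to within 0.891 and 1.45 times by counting error. The fall in Ov199 depended on the scaling, as it did not pass with adapter-trimmed reads (0.842-fold) or TMM factors (0.742-fold), and RNAi against Ov199 did not pass with adapter-trimmed reads (1.32-fold).

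The reads of MIR535 were spread over both arms, in contrast to MIR529a. The arms were divided at position 54.5, the middle of the span covered by reads. The 5p arm had 79 reads in Ov199, 70 in RNAi and 43 in NP, and the 3p arm 81, 100 and 75 reads. These counts include a few reads outside the main strands. A 15-nt sequence at 32 to 46, for example, had 2 reads in Ov199, 6 in RNAi and 0 in NP. The 5p share was 49.4% in Ov199 with a 95% interval (Wilson) of 41.7 to 57.0%, against 41.2% in RNAi (34.1 to 48.7%) and only 36.4% in NP (28.3 to 45.4%). The interval includes an even split in Ov199 only, and in RNAi and NP the 3p arm led. A minor arm with at least 25% of the reads was found at 29 of 149 known precursors (19.5%), so MIR535 belonged to the smaller group of precursors with many reads of both strands.

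The arm shares of MIR535 did not pass the test in any comparison. The 5p share of Ov199 was 12.9 percentage points above that of NP (p = 0.038, adjusted p = 0.43, Fisher's exact test), that of RNAi was 4.74 points above NP (adjusted p = 1, same exact test), and RNAi minus Ov199 gave -8.20 points (adjusted p = 0.57, same exact test). At 118 to 170 reads per library, a difference of this size is not resolved. Arm by arm, the 3p strand of Ov199 was 0.566 times that of NP (0.408 to 0.785) and the 5p strand 0.963 times (0.656 to 1.43), so that the interval lies below no change for the 3p strand and includes it for the 5p strand, although the arm shares themselves did not pass the test. RNAi had 1.85 times (1.37 to 2.52) the 3p reads of Ov199 and 1.33 times (0.95 to 1.86) its 5p reads.

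The main 5p sequence of MIR535 was read 52 times in Ov199, 48 times in RNAi and 31 times in NP, and the main 3p sequence 58, 72 and 59 times. The main 3p sequence was 0.519-fold in Ov199 against NP (adjusted p = 0.043) and 1.85-fold in RNAi against Ov199 (adjusted p = 0.047), and RNAi did not differ from NP by the test (0.960-fold, adjusted p = 1, Fisher's exact test throughout). Both calls were lost with scaling by adapter-trimmed reads, at 0.614-fold and 1.54-fold. The main 5p sequence passed in none of the 3 comparisons, at 0.881-fold for Ov199 and 1.21-fold for RNAi over NP, and 1.38-fold for RNAi over Ov199.

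The ends of MIR535 were somewhat less uniform than those of MIR529a 5p, a difference that was not tested. On the 5p arm 74.7% of the reads in Ov199, 72.9% in RNAi and 76.7% in NP started at position 11, and 87.3%, 90.0% and 93.0% ended at 31. On the 3p arm 76.5%, 86% and 82.7% started at 76, and 77.8% (95% Wilson interval, 67.6 to 85.5%), 82% (73.3 to 88.3%) and 93.3% (85.3 to 97.1%) ended at 96. Reads of the 3p arm that ended at position 99 numbered 9 in Ov199, 10 in RNAi and 0 in NP, where the limit is 3 reads. The commonest of them over the 3 libraries is a 24-nt sequence with the same start and seed (capitals) as the main 3p form, and the next is a 21-nt sequence with another start and seed.
MIR535 3p, 76 to 99: gTGCTTTCtcccgttgtcactgcc
MIR535 3p, 79 to 99: cTTTCTCCcgttgtcactgcc
The 24-nt form had 3 reads in Ov199, 8 in RNAi and 0 in NP, and it did not pass the test in any comparison (Fisher's exact test, adjusted p = 0.94 for Ov199 and 0.59 for RNAi over NP, 0.82 for RNAi over Ov199). The 21-nt form had 5 reads in Ov199, 2 in RNAi and 0 in NP.

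Reads made of the main 5p sequence of MIR535 with 1 base before it numbered 10 in Ov199, 7 in RNAi and 4 in NP, of which 6, 3 and 1 had T in place of the G of the precursor (G1T). On the 3p arm such reads numbered 4 in Ov199, 5 in RNAi and 7 in NP, and none of these 16 carried the C of the precursor. They began with G (C1G) in 3 reads of Ov199, 2 of RNAi and 5 of NP, and with T in the rest. Among the other isoforms of the 5p arm, the form at 12 to 31 was read 4 times in Ov199, 6 times in RNAi and 4 times in NP, and a 15-nt sequence at 32 to 46, beyond the main strand, 2, 6 and 0 times. On the 3p arm the form at 77 to 97 was read 5 times in Ov199, 3 times in RNAi and 2 times in NP, and the one at 77 to 96 was read 1, 3 and 4 times. None of these forms passed the test in any comparison (Fisher's exact test).

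Counted by distinct sequence, MIR529a was read as 109 forms over the 3 libraries, MIR535 as 35 and MIR529b as 6. Over the 3 precursors together, 109 forms were tested in Ov199 against NP, a number that is the same by coincidence. Of these, 2 forms of MIR529a rose in Ov199 and 1 form, the main 3p sequence of MIR535, fell. Of all distinct sequences in this comparison, 0.315% were called higher and 0.684% lower. In RNAi 5 of 112 forms rose and none fell compared to the NP, where 0.334% of all sequences were higher and 0.506% lower. Of the 126 forms compared between RNAi and Ov199, 3 rose in RNAi and none fell, where 0.487% of all were higher and 0.452% lower. These shares over all sequences are not matched for abundance. Those that passed were the main 5p and 3p sequences, the 20-nt form, the A1G and the A1T form of MIR529a, and the main 3p sequence of MIR535.

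Side by side, the members did not keep a fixed ratio in the 3 lines. MIR529a had 23.0 reads for each read of MIR535 in Ov199, 20.7 in RNAi and 12.8 in NP. The ratio was 1.80 times that of NP in Ov199 (p = 4.1e-06, adjusted p = 1.2e-05) and 1.62 times in RNAi (p = 1.3e-04, adjusted p = 2.1e-04), and in RNAi it was 0.902 times that of Ov199 (p = 0.37, adjusted p = 0.41, Fisher's exact test, adjusted over 9 such ratios). A ratio within a library does not depend on the scaling between libraries. MIR529a thus gained on MIR535 in both transgenic libraries, and no difference between RNAi and Ov199 was detected in this ratio.

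The precursors MIR156a to MIR156l, which share reads among themselves, are the other miRNA source directed at SPL mRNAs. Counted a single time per distinct sequence, they had 733 reads in Ov199, 523 in RNAi and 208 in NP. Normalized, these were 7785, 8338 and 4216 counts. The summed reads were 1.85 times those of NP in Ov199 (1.58 to 2.16) and 1.98 times in RNAi (1.68 to 2.33). RNAi over Ov199 gave 1.07 (0.956 to 1.20), an interval that includes no change. Precursor by precursor, 10 of the 12 rose and none fell in Ov199 over NP, and the counts were the same in RNAi. RNAi compared to Ov199 gave none that rose and 6 that fell. Those 6 were MIR156a, b, c, e, g and i, with 235 to 256 reads each in Ov199 and 95 to 115 in RNAi. As reads are shared, these precursors are not separate observations. Over all known precursors, 8.87% rose in Ov199 and 10.5% in RNAi over NP, and 7.91% fell in RNAi over Ov199. A list with shared reads cannot be weighed against these shares. The median log2 fold of the list over NP was 1.45 for Ov199 and 1.19 for RNAi, and for RNAi over Ov199 it was -0.29. Over all known precursors tested the medians were 0.05, 0.06 and 0.09. The medians of the list also count shared reads at several precursors. The main miR156 5p sequence was read 239 times in Ov199, 196 times in RNAi and 71 times in NP, at 1.76-fold over NP in Ov199 (adjusted p = 0.0025) and 2.16-fold in RNAi (adjusted p = 1.6e-06), and at 1.23-fold in RNAi over Ov199 (adjusted p = 0.79, Fisher's exact test).

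MIR529a stayed above MIR156 in reads in all lines, at 5.02 reads per read of MIR156a to MIR156l in Ov199, 6.74 in RNAi and 7.25 in NP. The ratio in Ov199 was 0.693 times that of NP (p = 9.6e-06, adjusted p = 2.2e-05, Fisher's exact test), and the ratio in RNAi was 0.931 times that of NP (p = 0.44, adjusted p = 0.44, same exact test) and 1.34 times that of Ov199 (p = 1.8e-06, adjusted p = 7.9e-06, same exact test). MIR535 had 0.218 reads per read of MIR156 in Ov199, 0.325 in RNAi and 0.567 in NP. Its ratio was 0.385 times that of NP in Ov199 (adjusted p = 8.4e-10) and 0.573 times in RNAi (adjusted p = 2.1e-04), and 1.49 times that of Ov199 in RNAi (adjusted p = 0.0019, Fisher's exact test throughout). The miR156 reads therefore gained on both MIR529a and MIR535 in Ov199, and on MIR535 alone in RNAi among the ratios that passed.

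**Figure D4:**
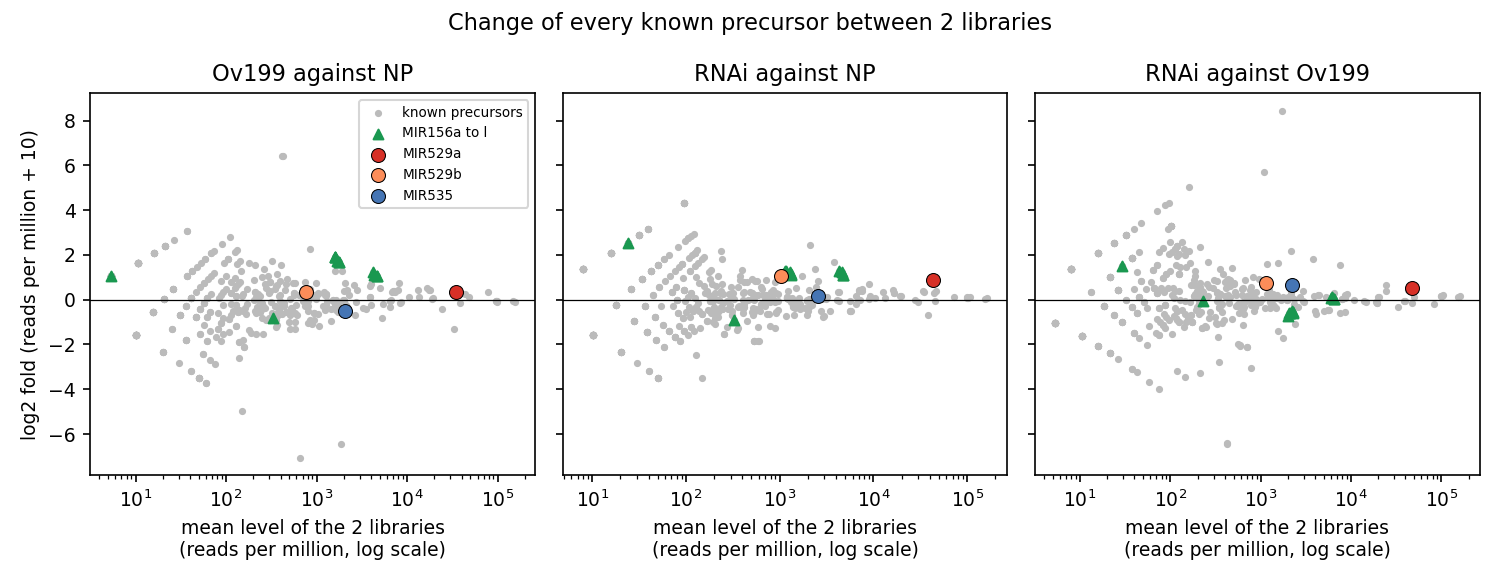
Log2 fold (normalized count + 10) of every known precursor against its mean level in the libraries compared (log scale), with a panel for each pair of libraries; grey points are the other known precursors, triangles MIR156a to MIR156l and large circles MIR529a, MIR529b and MIR535. MIR529a lies at the abundant end with folds of 1.28, 1.84 and 1.44, and MIR535 lies below 0 in Ov199 against NP only.

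The miR172 family, which acts after miR156 in the same age pathway on AP2-type mRNAs, was near the limit of detection. MIR172a to MIR172d had 13 reads in Ov199, 4 in RNAi and 9 in NP together, and none of the precursors tested passed in any comparison. The miRNAs miR2118 and miR2275, triggers of phased small RNAs in rice panicles and anthers, served as markers of reproductive organs in the pool. Of their 22 precursors 19 had a read, and together they had 98 reads in Ov199, 70 in RNAi and 52 in NP, normalized to 1041, 1116 and 1054 counts. The ratio of these sums to NP was 0.988 in Ov199 (0.699 to 1.41) and 1.06 in RNAi (0.729 to 1.55), and RNAi over Ov199 gave 1.07 (0.777 to 1.47), and none of their precursors passed in any comparison. Split by family, MIR2118 had 80 reads in Ov199, 54 in RNAi and 33 in NP, or normalized 850 (95% exact Poisson interval, 674 to 1057), 861 (647 to 1123) and 669 (460.4 to 939). MIR2275 had 18, 16 and 19 reads in that order of lines, or normalized 191 (113 to 302), 255 (146 to 414) and 385 (232 to 601). The values of MIR2118 were thus lowest and those of MIR2275 highest in NP, with intervals that overlap in each family. These markers were thus present in all 3 pools, and the part of the flower share of each pool in the levels of MIR529a and MIR535 was not tested.

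Among 146 other known precursors with at least 100 reads, those with the profile nearest to MIR529a over the 3 libraries were MIR1851, MIR166i and MIR2877, at Euclidean distances of 0.044, 0.083 and 0.262 between centred log2 normalized counts, against a median distance of 0.684. MIR1851 had 627 normalized counts in Ov199, 941 in RNAi and 507 in NP, and MIR166i had 2496, 3316 and 1865. The same 3 precursors were nearest to MIR529b, which shares its reads with MIR529a. Nearest to MIR535 were MIR1856, MIR818e and MIR2120, at 0.066, 0.095 and 0.155 against a median of 0.643. MIR818e had 1848 normalized counts in Ov199, 2726 in RNAi and 2392 in NP, close to MIR535 in level too. A likeness over 3 libraries rests on 3 points and carries no test.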

How the data were processed

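Adapters and low-quality reads were removed by the authors, who then collapsed reads of the same sequence, aligned them to known and predicted rice precursors, and deposited raw read counts per distinct sequence with its place and mismatches. The aligner settings are not given in the sources used here.

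Reads were summed per precursor, with a sequence of several places counted at each. Folds used the normalized count + 10. Fisher's exact test was adjusted over all known precursors with a read in either library, over precursors with reads on both arms, or over all distinct sequences, with a threshold of 0.05. As each line had 1 library, edgeR (TMM) and DESeq2 gave scaling factors only. The tests were checked on simulated data drawn with counting error only, which do not contain the spread between plants of a line. Duplexes came from RNAduplex.

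The members, the lists and the tests were chosen with earlier results of these data known. Sequences were named when they led their arm or reached 1% of the reads of their precursor in any library, with up to 5 per arm in the text, together with the listed miR529a; per member the 3 nearest profiles were named. Isoforms under this share are given with their reads only.

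Alternatives were scaling by adapter-trimmed reads, TMM or DESeq2 factors, other pseudocounts (1 and 100), removal of MIR1876, at least 10 reads per precursor, leaving out sequences with 1 read, exact alignments, reads divided over places, 20 to 24 nt, predicted precursors included, and counting distinct sequences in place of reads. Arms set by the hairpin midpoint were not run, since no hairpin sequences were used here. Tools were DESeq2 1.42.0, edgeR 4.0.16 and R 4.3.3, ViennaRNA 2.7.2, and matplotlib 3.10.9, scipy 1.17.1, pandas 2.3.3 and numpy 2.4.6 in Python 3.11.15.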

Additional observations from a re-analysis of the deposited data

How the results depend on the processing

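Of the 155 values for precursors under the alternatives, 133 kept their direction, call or count, and so did 20 of 26 for arm shares and 88 of 95 for single sequences. With sequences of at least 10 reads, 2 forms of MIR529a gained a call in RNAi over Ov199, that at 9 to 28 (1.24-fold) and the A1G form (1.71-fold). With adapter-trimmed reads as the total the folds were 0.842 for MIR535 in Ov199 against NP, 1.38 for MIR529b and 1.32 for MIR535 in RNAi against Ov199, none past the threshold, and the first was 0.742 with TMM factors and again not past it. That scaling also turned the direction of 2 sequences that had not passed, MIR535 5p at 11 to 31 in Ov199 against NP (1.04) and the C1G form of MIR535 3p in RNAi against Ov199 (0.866). Precursors called numbered 92 for Ov199 and 74 for RNAi over NP, and 103 for RNAi over Ov199. With exact alignments the last 2 of these were 49 and 65, and MIR529b in RNAi against Ov199 turned to 0.273 on 0 and 2 reads. With reads divided over places the counts were 57, 30 and 54, and MIR529b had folds of 2.13 for RNAi over NP and 1.64 for RNAi over Ov199, not past the threshold.

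Counting each distinct sequence a single time measures variety and not level, and leaves few counts per precursor. Fisher's exact test then called 7, 0 and 4 precursors in these comparisons, and in RNAi against NP 9 had an unadjusted p under 0.05. MIR529a was at 1.05, 1.44 and 1.37 and MIR529b at 2.67 in RNAi against NP, none past the threshold, and 3 directions turned, at 1.19 for MIR535 in Ov199 against NP, and at 0.744 for MIR529b and 0.976 for MIR535 in RNAi against Ov199. The 5p share of MIR529a in Ov199 against NP differed by 1.66 points with exact alignments and 1.83 points with single-place reads, not past the threshold. In RNAi against NP, where the difference was near 0, its sign turned, with -0.60 for exact alignments, -0.18 without sequences of 1 read, -0.19 for 20 to 24 nt and -0.13 for single-place reads. Causes other than these constructions were not tested. No paired analysis was possible because each line had 1 library. Depth limits MIR535 and MIR529b most, with 33 to 170 reads per library, against at least 1507 for MIR529a.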
